A study of Mus musculus with 2 samples.

Results

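Pou3f1, Pou3f2, Pou3f3 and Pou3f4, the 4 class III POU transcription factor genes of the mouse, and Pantr1, a long noncoding RNA gene beside Pou3f3, were followed in the embryonic forebrain. These 5 genes were found by symbol among 42462 named genes of the deposited tables, which list 69691 features in all. Total RNA had been sequenced from forebrains of B6NCrl mouse embryos at embryonic day 12.5. There was 1 group of 2 biological replicates, each a pool of embryos of both sexes, with 120 embryos in replicate 1 and 68 in replicate 2, and the labels name no treatment or mutation. The design therefore allows levels, their order within the libraries and the spread between the pools, and no contrast of conditions.

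POU proteins bind DNA through a POU-specific domain and a POU homeodomain joined by a flexible linker, and many recognise octamer-like sites. The class III genes have no introns in their coding regions and are used by neural progenitors and young neurons, often several in the same cell and often together with SoxB or SoxC partners. Pou3f2 (Brn2) and Pou3f3 (Brn1) are known for their joint role in making and placing upper layer cortical neurons. Pou3f1 (Oct6, also SCIP) is known from myelinating Schwann cells as well as cortex, and Pou3f4 (Brn4) from the inner ear and the ventral forebrain. Pantr1 is transcribed away from Pou3f3 on the opposite strand.

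Expected counts, the estimated numbers of reads per gene, summed to 33711030 in replicate 1 and 34578499 in replicate 2. Levels are given in TPM, which divides by transcript length and scales to a library total of all features, so genes can be compared within a library. Spike-in RNA took 9.19% of TPM in replicate 1 and 8.25% in replicate 2. All 5 pallial and all 5 subpallial marker genes examined reached 1 TPM in each pool, and 0 of 6 hindbrain and spinal cord Hox genes did (2 of the 6 were at 0 in both). Meningeal and mesenchymal genes were present as well, and their sum was 550 and 653 TPM in replicates 1 and 2. In such bulk tissue, fewer cells of a type and less RNA per cell cannot be told apart.

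All 5 genes were expressed, and Pantr1 stood above the transcription factors, by a margin that depends on the length it is given. Pantr1 (ENSMUSG00000060424, lincRNA, GRCm38 chr1:42590782-42694842, minus strand) measured 418 and 327 TPM in replicates 1 and 2, for a mean of 373 ± 64.7 TPM (SD, n = 2). It was 9th among the 1113 long noncoding RNA genes at a mean of 1 TPM or more. When every gene was divided by its longest annotated transcript, Pantr1 was at 137 ± 24.2 and Pou3f2 at 52.8 ± 7.30 on the same per-million scale. The longest Pantr1 transcript held only 0.525 ± 0.0495% of Pantr1 TPM. Of the protein-coding members, Pou3f2 (ENSMUSG00000095139, chr4:22482780-22488366, minus strand) measured 39.3 and 32.5 TPM in replicates 1 and 2 (35.9 ± 4.81 TPM). Pou3f3 (ENSMUSG00000045515, chr1:42695768-42703176, plus strand) was next to it at 37.8 and 31.5 TPM in replicates 1 and 2 (34.7 ± 4.47 TPM). These genes held places 4617 and 4733 in level among 13092 protein-coding genes at a mean of 1 TPM or more, in the upper part of that list.

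The other pair was lower. Pou3f1 (ENSMUSG00000090125, chr4:124656807-124660655, plus strand) measured 17.8 and 13.2 TPM in replicates 1 and 2, with a mean of 15.5 ± 3.23 TPM. Pou3f4 (ENSMUSG00000056854, chrX:110814280-110817207, plus strand) measured 13.5 and 11.7 TPM in replicates 1 and 2, with a mean of 12.6 ± 1.26 TPM. Their places were 7615 and 8278 of 13092. The expected counts behind these levels ranged between 697 for Pou3f4 in replicate 2 and 5570 for Pou3f3 in replicate 1, so all 5 genes lay far above a floor of 3 counts, which corresponds to at most 0.292 TPM for any of them.

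**Figure D1:**
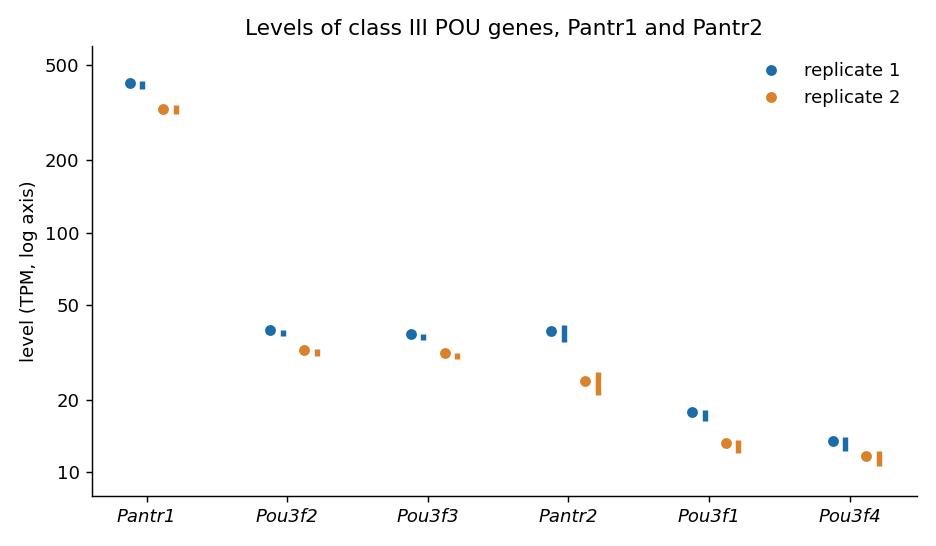
Level of each gene in TPM on a log axis, with a point per replicate and, to the right of each point, a bar for the deposited interval of its posterior mean. Pantr1 lies highest, at 327 to 418 TPM, Pou3f2 and Pou3f3 lie side by side, Pou3f1 and Pou3f4 lie lower, and every point of replicate 1 is above that of replicate 2. Pantr2, a further noncoding gene of the Pou3f3 locus, is shown beside them.

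The order Pantr1, Pou3f2, Pou3f3, Pou3f1, Pou3f4 was the same in both pools, but its neighbours were not all apart. A pair was counted as different where the log2(TPM + 1) difference had the same sign in both replicates and exceeded the larger difference of either gene between the replicates. By this rule 8 of the 10 pairs differed. The remaining pairs were Pou3f2 with Pou3f3, whose log2 differences of 0.05 in replicate 1 and 0.04 in replicate 2 were under a spread of 0.27, and Pou3f1 with Pou3f4, whose differences of 0.37 and 0.16 were under a spread of 0.40. That spread holds the shift that both genes of a pair had between the pools, so the rule can miss a small steady difference. Within libraries, the log2 differences had an SD of 0.00736 for Pou3f2 with Pou3f3 and 0.151 for Pou3f1 with Pou3f4 (n = 2). Pou3f2 exceeded Pou3f1 2.21-fold in replicate 1 and 2.45-fold in replicate 2. Pou3f3 exceeded Pou3f4 2.80-fold in replicate 1 and 2.68-fold in replicate 2.

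The parts of the class III total held by each gene were close between the pools. The 4 genes summed to 108 and 88.9 TPM in replicates 1 and 2. Pou3f2 held 36.4 ± 0.201% of that sum and Pou3f3 35.1 ± 0.375%, together 71.5 ± 0.576%. Pou3f1, with the widest spread, held 16.4% in replicate 1 and 14.9% in replicate 2 (15.6 ± 1.09%), and Pou3f4 held 12.8 ± 0.516% (SD, n = 2 for each share). With gene spans taken from RefSeq the shares were 27.2% for Pou3f2, 49.5% for Pou3f3 and 6.57% for Pou3f4, so the SDs do not cover the choice of gene model. Each class III gene has 1 annotated transcript of 1 exon, so no choice between annotated transcripts enters these levels.

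The nearness of Pou3f2 and Pou3f3 in level depends on the length each is given. The annotation used by the tables makes Pou3f3 7409 bases long and Pou3f2 5587, against spans of 4443 and 6272 bases in RefSeq. Divided by the RefSeq spans, the same reads gave Pou3f3 1.82 ± 0.00925 times the value of Pou3f2, and Pou3f1 2.54 ± 0.279 times that of Pou3f4. Both pairs then differ by the rule above. The reads had been counted within the longer or shorter GENCODE models, so these ratios show how far the gene model can move the values and do not replace the TPM.

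The 4 proteins share most of their DNA-binding part, which raises the question of whether reads could be exchanged between the genes. The most alike stretch of the coding sequences is shown for this reason. It spans 90 bases in the POU-specific domain, and lies on GRCm38 at chr1:42698181-42698270 for Pou3f3, chr4:124658544-124658633 for Pou3f1, chr4:22487148-22487237 for Pou3f2 and chrX:110815125-110815214 for Pou3f4. Sequences are from the GENCODE transcripts, 5′ to 3′ on the coding strand, and capitals mark bases that differ from Pou3f3:
Pou3f3: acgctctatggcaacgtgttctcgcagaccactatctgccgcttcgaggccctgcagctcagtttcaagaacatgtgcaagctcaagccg
Pou3f1: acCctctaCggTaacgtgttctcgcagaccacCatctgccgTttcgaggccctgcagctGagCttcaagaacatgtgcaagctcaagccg
Pou3f2: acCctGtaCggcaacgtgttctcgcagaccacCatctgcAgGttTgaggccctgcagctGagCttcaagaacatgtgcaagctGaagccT
Pou3f4: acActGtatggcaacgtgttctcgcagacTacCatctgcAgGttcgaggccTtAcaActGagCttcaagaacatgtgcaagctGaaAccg

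In this stretch 73 of 90 bases were equal in all 4 genes. Pou3f1 matched Pou3f3 at 83 bases, Pou3f2 at 79 and Pou3f4 at 77, and all 30 encoded residues were the same. Even so, no exact run of 100 bases was shared between any pair of members. Pou3f2, Pou3f3, Pou3f4 and Pantr1 shared no such run with any other annotated gene either. The search took exact runs only, so whether reads with mismatched bases were exchanged was not tested. In Pou3f1 6.19% of its 3750 runs lay opposite the antisense gene Gm2164, which overlaps it by 330 exon bases and measured 0 and 0.330 TPM in replicates 1 and 2. The deposited expected counts were 1345 for Pou3f1 and 0 for Gm2164 in replicate 1, and 1040.74 and 2.26 in replicate 2. No label or file header says whether counting used strand, so how reads of this overlap were assigned cannot be checked from these tables.

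Pantr1 and Pou3f3 start 926 bases apart and run in opposite directions. In TPM Pantr1 exceeded Pou3f3 11.1-fold in replicate 1 and 10.4-fold in replicate 2, a mean of 10.7 ± 0.483. Counted as reads without any division by length, Pantr1 had 0.771 times the reads of Pou3f3 in replicate 1 and 0.724 times in replicate 2. The mean Pantr1 transcript was 608 bases in replicate 1, against 7409 bases for Pou3f3, which is where these ratios part. When each gene was divided by its longest annotated transcript, the excess of Pantr1 fell to 2.66 ± 0.118-fold. For Pantr1 that is Pantr1-208 of 2085 bases, which held 0.49% of its TPM in replicate 1 and 0.56% in replicate 2. This length therefore stands for few of the assigned Pantr1 transcripts.

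A second noncoding gene, Pantr2, starts 17686 bases downstream of the Pou3f3 start and runs back towards it. It measured 39.0 and 24.0 TPM in replicates 1 and 2 (31.5 ± 10.6 TPM), a level next to that of Pou3f3 in replicate 1 and below it in replicate 2. The ratio of Pantr2 to Pou3f3 was 1.03 in replicate 1 and 0.763 in replicate 2. Pantr2 was carried mainly by Pantr2-202, at 79.5 ± 0.375% of its TPM. The entry AC122898.1, on the plus strand from a start 83 bases beyond that of Pantr1, measured 1.75 and 1.76 TPM in replicates 1 and 2, and has no exon inside Pou3f3. The entry 4930420N18Rik, which lies inside Pantr1 on the other strand and shares none of its exon bases, measured 1.20 and 0.990 TPM.

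**Figure D2:**
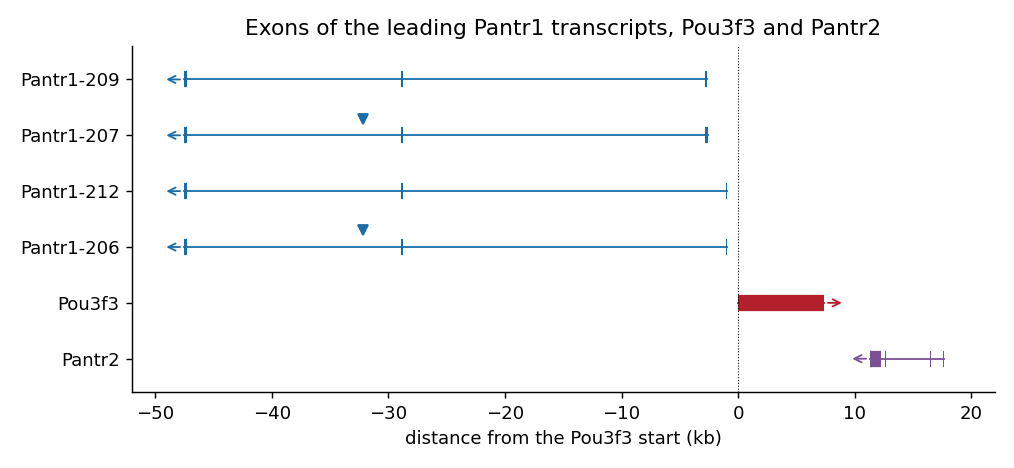
Exons (thick) and introns (thin) of the 4 leading Pantr1 transcripts, Pou3f3 and both Pantr2 transcripts drawn together, by distance from the Pou3f3 start in kb, with arrows for the direction of transcription. The triangles mark the 47-base exon, which is too narrow to see at this scale. Pantr1-209 ends 47575 bases from the Pou3f3 start, and its first exon lies 2640 to 2827 bases from it.

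Of 12 annotated Pantr1 transcripts, 4 carried 97.0 ± 0.891% of the TPM, and they combine a choice of first exon with the presence of a small internal exon. Pantr1-209 led with 56.29% in replicate 1 and 56.30% in replicate 2, at 236 TPM and 184 TPM. Pantr1-207 held 17.6 ± 0.962% and Pantr1-212 17.1 ± 1.21%. Pantr1-206 held 3.82% in replicate 1 and 8.14% in replicate 2, and its deposited interval was wide, between 0.000754 and 37.3 TPM in replicate 1. The 8 remaining transcripts together held 3.03 ± 0.884%.

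Transcripts that begin at the inner first exon (chr1:42692941-42693153), whose starts lie 2615 to 2675 bases from that of Pou3f3, made up 75.3% of Pantr1 TPM in replicate 1 and 73.6% in replicate 2. Those of the outer first exon (chr1:42694747-42694842), 926 to 960 bases from the Pou3f3 start, made up 23.4% and 26.0%. A 47-base exon (chr1:42663556-42663602) was in transcripts holding 22.8% of the TPM in replicate 1 and 25.5% in replicate 2. A 163-base exon (chr1:42666841-42667003) was whole in 98.7 ± 0.0354%. These shares are the authors' assignments of reads to annotated transcripts.

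The junctions that join these exons are shown from the GENCODE transcripts on GRCm38, 5′ to 3′ on the minus strand. In the first pair capitals mark the 163-base exon that both first exons join, in the other sequences they mark the last exon or the 47-base exon:
inner first exon to the 163-base exon: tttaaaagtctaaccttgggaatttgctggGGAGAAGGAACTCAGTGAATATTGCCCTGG
outer first exon to the 163-base exon: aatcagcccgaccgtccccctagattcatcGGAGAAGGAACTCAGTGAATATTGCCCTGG
163-base exon to last exon: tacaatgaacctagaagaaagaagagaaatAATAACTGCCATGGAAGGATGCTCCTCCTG
47-base exon between its neighbours: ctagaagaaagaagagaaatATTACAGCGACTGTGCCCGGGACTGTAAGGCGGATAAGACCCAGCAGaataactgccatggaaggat

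**Figure D3:**
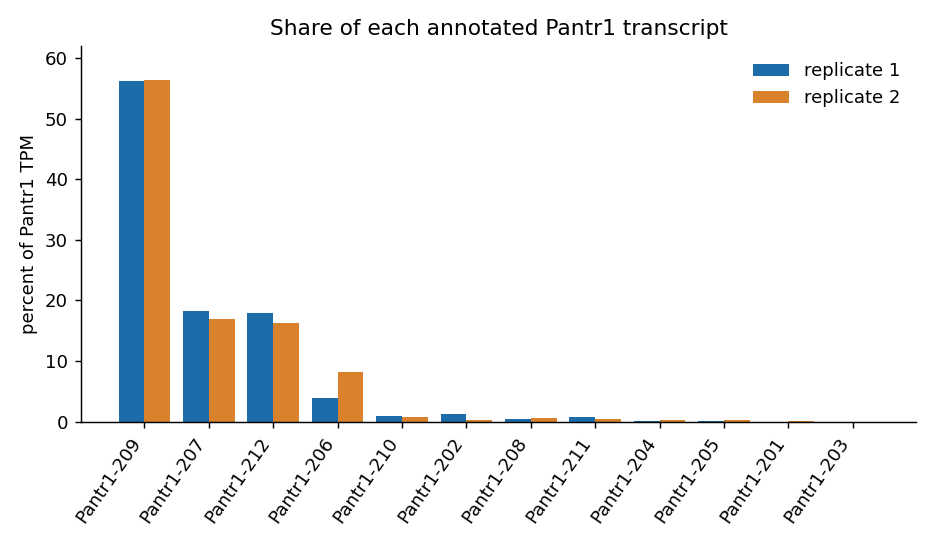
Percent of Pantr1 TPM carried by each annotated transcript, with a bar per replicate. Pantr1-209 stands at 56.3% in both replicates, Pantr1-207 and Pantr1-212 at a mean of 17.6% and 17.1%, and Pantr1-206 differs most between the replicates.

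The sequence before each start was read from RefSeq, whose table held windows for Pou3f2, Pou3f3, Pou3f4 and Pantr2. The windows run from 250 bases before to 50 bases after each start. They were searched on both strands for CCAAT, for the octamer ATGCAAAT that POU factors bind, for TATAAA and for the GC box GGGCGG. The search for the first of these motifs was added after the sequences had been read. Pou3f3 and Pou3f4 each held 3 CCAAT matches, and 3.37% of 32851 promoter windows hold at least that many. Pou3f2 and Pantr2 held 2, a minimum that 11.7% of windows reach. The octamer, present in 1.74% of all windows, and TATAAA, present in 13.6%, were in none of these windows. GGGCGG occurred 5 times in Pou3f2, partly overlapping, and 1 time in Pou3f3. At least 1 match is in 35.7% of windows, and at least 4 are in 5.49%. GC content was 67.7% for Pou3f2, 60.3% for Pou3f3 and 57.7% for Pou3f4, against a median of 52.7%. These matches describe letters in a window and say nothing of binding.

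The parts of those windows that lie before the annotated start in both RefSeq and GENCODE are shown, since CCAAT was found in every window. They are on GRCm38.p6, 5′ to 3′ on the strand of the gene, at chr4:22488367-22488616 for Pou3f2, chr1:42695518-42695767 for Pou3f3 and chrX:110814129-110814279 for Pou3f4, and capitals mark CCAAT. The RefSeq start of Pou3f4 lies 99 bases further into the GENCODE model, where its other CCAAT matches fall:
Pou3f2: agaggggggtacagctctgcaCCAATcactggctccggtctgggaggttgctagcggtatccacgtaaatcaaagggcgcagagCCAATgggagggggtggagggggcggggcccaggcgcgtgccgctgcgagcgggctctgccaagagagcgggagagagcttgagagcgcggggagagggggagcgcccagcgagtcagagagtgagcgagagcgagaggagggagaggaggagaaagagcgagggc
Pou3f3: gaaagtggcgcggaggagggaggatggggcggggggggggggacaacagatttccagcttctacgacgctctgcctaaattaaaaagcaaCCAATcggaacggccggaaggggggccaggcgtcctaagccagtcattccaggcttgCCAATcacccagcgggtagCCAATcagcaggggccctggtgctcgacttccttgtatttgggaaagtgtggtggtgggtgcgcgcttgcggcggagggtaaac
Pou3f4: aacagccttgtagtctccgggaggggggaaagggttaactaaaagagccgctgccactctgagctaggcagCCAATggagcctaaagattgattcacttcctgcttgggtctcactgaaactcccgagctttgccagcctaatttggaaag

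All 5 members were higher in replicate 1 than in replicate 2. The ratio of replicate 1 to replicate 2 was 1.35 for Pou3f1, 1.28 for Pantr1, 1.21 for Pou3f2, 1.20 for Pou3f3 and 1.15 for Pou3f4. Among 15192 named genes at a mean of 1 TPM or more, 46.8% were higher in replicate 1 and 11.3% had a ratio at or above that of Pou3f4. The deposited intervals of the replicates were apart for 4 of the 5 members, all with replicate 1 above, against 13.9% of genes in either direction, 7.01% with replicate 1 above and 6.94% with replicate 2 above. Among genes whose mean lay within the members' range of levels, 10.1% had replicate 1 above. Without a minimum level the share in either direction was 5.34%, at a mean of 10 TPM or more it was 17.5%, and by exact Poisson intervals it was 23.8%, with 4 of 5 members apart by those intervals too. Pou3f1, for example, had an interval of 16.4 to 18.2 TPM in replicate 1 and 12.1 to 13.7 TPM in replicate 2. Pantr1 had intervals of 398 to 427 TPM and 312 to 340 TPM, Pou3f2 of 37.0 to 39.3 TPM and 30.6 to 32.6 TPM, and Pou3f3 of 35.8 to 37.7 TPM and 29.8 to 31.5 TPM. These belong to the posterior mean, so the TPM of Pou3f3 in replicate 1 can lie just above its interval. The intervals of Pou3f4, 12.2 to 14.1 TPM and 10.6 to 12.3 TPM, overlapped. The intervals cover counting and read assignment error only, and not the spread between embryos or preparations.

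Markers of forebrain regions differed between the pools as well. The 5 subpallial markers, Dlx1, Dlx2, Dlx5, Gsx2 and Nkx2-1, summed to 520 and 343 TPM in replicates 1 and 2, and their intervals were apart with replicate 1 above in 5 of 5. Dlx1, for example, measured 246 and 171 TPM in replicates 1 and 2. The 5 pallial markers summed to 294 and 324 TPM in replicates 1 and 2, with replicate 2 above in 3 of 5. The 3 thalamic markers summed to 227 TPM and 239 TPM, and the 4 meningeal and mesenchymal ones had replicate 2 above in 4 of 4. In replicates 1 and 2, 3 upper layer neuron markers summed to 148 and 143 TPM and 3 hypothalamic ones to 11.3 and 13.3 TPM. The 4 Schwann and oligodendrocyte lineage markers summed to 9.64 and 10.6 TPM and the 3 keratinocyte markers to 8.21 and 12.4 TPM. The part of these markers in the members' difference was not tested. When libraries were scaled to their spike-ins, the ratios of the members ranged from 1.03 for Pou3f4 to 1.21 for Pou3f1, with the median of all genes at 0.889.

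**Figure D4:**
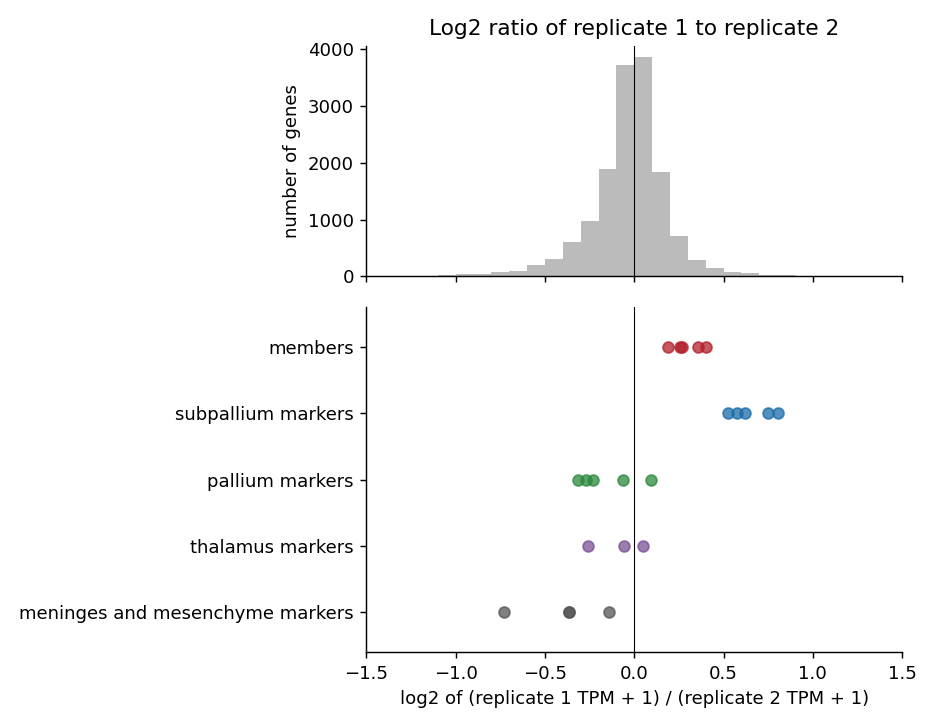
Log2 of the ratio of replicate 1 to replicate 2, computed on TPM + 1, as a histogram of 15192 genes at a mean of 1 TPM or more (upper) and as points for the 5 members and 4 marker groups (lower). The members lie between 0.19 and 0.40, right of the centre of the histogram, the subpallial markers lie further right, and the meningeal markers lie left.

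Among the other POU genes, class III held most of the family's transcripts. The class III genes made up 59.1% of the TPM of all POU genes in replicate 1 and 56.8% in replicate 2. Of the 11 other POU genes, 6 passed 1 TPM in each pool, and the median over all 11 was 2.19 TPM. Of all 21474 protein-coding genes 60.0% passed, with a median of 4.60 TPM. Pou2f1, a widely used octamer factor, measured 24.3 and 23.0 TPM in replicates 1 and 2. Pou2f2 measured 23.2 and 18.3 TPM, and Pou6f1 21.7 and 17.4 TPM, both above Pou3f1 and Pou3f4 in each pool. Pou4f1, a factor of sensory and habenular neurons, measured 1.83 and 3.93 TPM in replicates 1 and 2. Pou5f2 stood at 2.19 ± 0.552 TPM. Pou5f1, the pluripotency factor, was at 0.0750 TPM and Pou4f2 at 0.0150 TPM on average, and 3 others were listed at 0 in both.

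Within the homeodomain genes the class III members stood in the upper and middle ranks. Of 177 homeodomain genes, the class III genes among them, 85 passed 1 TPM in both pools, and the median over all 177 was 1.03 TPM. This is 48.0%, against the 60.0% of all protein-coding genes. Pou3f2 was 21st and Pou3f3 23rd in mean level. They stood between Tgif1 at 41.3 ± 2.96 TPM and Lhx9 at 33.2 ± 4.31 TPM, with Meis1 at 35.4 ± 2.62 TPM between them. Pou3f1 was 47th, between Shox2 at 16.0 ± 3.08 TPM and Prrx2 at 14.8 ± 2.29 TPM. Pou3f4 was 51st, between Lhx1 at 13.7 ± 0.163 TPM and Msx2 at 12.1 ± 5.73 TPM. Apart from Lhx1, each of these neighbours was higher in replicate 2, so that Pou3f1, for example, lay above Shox2 (13.8 TPM) in replicate 1 and below it (18.2 TPM) in replicate 2. Of the 89 homeodomain genes at a mean of 1 TPM or more, 18 had intervals apart with replicate 1 above and 18 with replicate 2 above. Among all named genes at that mean, 7.01% had replicate 1 above and 6.94% replicate 2 above.

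**Figure D5:**
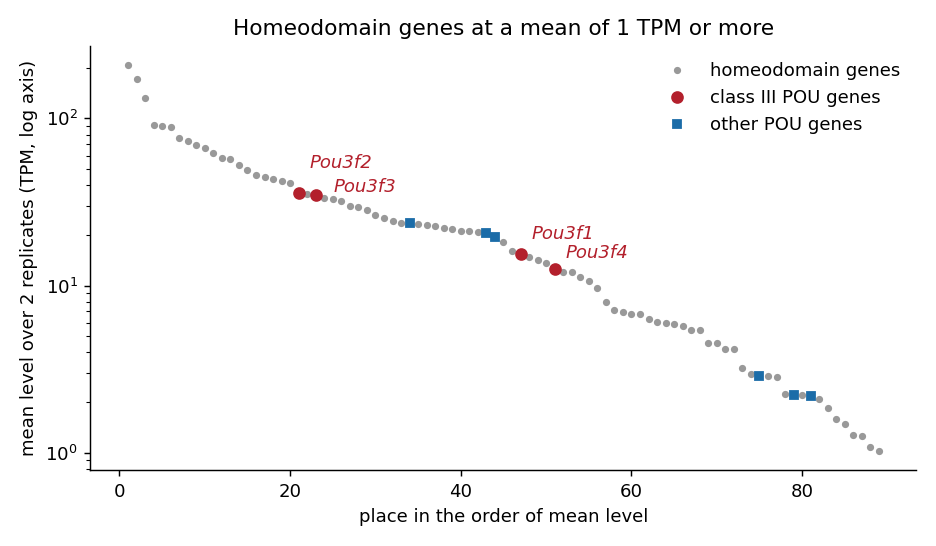
Mean level in TPM, on a log axis, of the 89 homeodomain genes at a mean of 1 TPM or more, ordered from the highest. Class III POU genes are large circles and other POU genes squares. Pou3f2 and Pou3f3 lie at places 21 and 23, Pou3f1 and Pou3f4 at 47 and 51.

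Genes of proteins that act with or upstream of class III POU factors were all expressed. All 9 passed 1 TPM in each pool. The SoxC genes Sox11 and Sox4, which encode factors of newborn neurons, measured 602 ± 32.3 TPM and 212 ± 2.84 TPM. The SoxB1 genes were lower, with Sox2 of neural progenitors at 57.0 ± 2.56 TPM, Sox1 at 8.50 ± 0.827 TPM and Sox3 at 7.15 ± 0.721 TPM. Pqbp1, whose product binds the Pou3f2 protein, stood at 144 ± 6.92 TPM. Arnt2 and Sim1, which act upstream of Pou3f2 in the hypothalamus, measured 52.0 ± 4.13 TPM and 3.69 ± 0.0495 TPM. Sox11 and Arnt2 had intervals apart between the pools with replicate 1 above.

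Of 10 genes known as targets of class III factors, in neural and other tissues, 5 passed 1 TPM in both pools, against 60.0% of all protein-coding genes. Fabp7, a lipid carrier of radial glia, measured 876 ± 108 TPM and Nes, the progenitor intermediate filament gene, 126 ± 7.89 TPM. Dll1, a Notch ligand, stood at 76.9 ± 4.82 TPM, Cdk5r1, a neuronal activator of Cdk5, at 48.4 ± 5.56 TPM and Cdk5r2 at 1.65 ± 0.0354 TPM. The neuropeptide gene Crh of the hypothalamus was at 0.0600 TPM on average, and Avp and Oxt were listed at 0. The Schwann cell gene Egr2 was at 0.230 TPM on average. Nes, Fabp7 and Cdk5r1 had intervals apart with replicate 1 above.

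Genes near the members passed 1 TPM about as often as named genes in general. Within 100 kb of a member's start, 7 of 21 other genes (33.3%) passed 1 TPM in both pools, against 34.5% of all named genes. Around Pou3f1 these were Utp11, a ribosome assembly gene 36793 bases away at 52.6 ± 0.0212 TPM, Sf3a3, a splicing factor gene, at 167 ± 0.304 TPM, Inpp5b at 23.0 ± 4.72 TPM, Fhl3 at 1.83 ± 0.0424 TPM and the pseudogene Gm12917 at 2.46 ± 1.15 TPM. Around Pou3f3 and Pantr1 they were Pantr2 and AC122898.1. Around Pou3f2 none passed, with Gm37900 at 0.290 TPM and Gm11878 at 0.200 TPM on average as the nearest on either side, and no gene was annotated within 100 kb of Pou3f4. The nearest protein-coding gene was Fbxl4, 130.8 kb from Pou3f2, Mrps9, 155.5 kb from Pou3f3, and Cylc1, 296.1 kb from Pou3f4. Cylc1 was listed at 0, Fbxl4 measured 7.71 TPM and Mrps9 38.5 TPM on average.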

How the data were processed

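Gene and transcript tables of 2 libraries of total RNA from embryonic forebrain were used. Per the labels' protocols, each library started from 10 ng of mirVana-extracted RNA above 200 nucleotides with added spike-ins, and the protocols include a manual of the SMARTer Ultra Low kit. Per the file headers, the authors' tables rest on mouse build mm10 with the GENCODE M4 annotation and were made per replicate. No label or file header names the aligner, the quantifier or the use of strand. The deposited expected counts are estimated reads per gene, the deposited TPM and FPKM are scaled by effective length, here the length minus 99 bases, and the deposited percent of each transcript is its part of the gene's TPM. The deposited interval bounds belong to the posterior mean TPM, and their level is not stated.

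Gene identifiers without their version were matched to GENCODE M21 (GRCm38, the same build) for symbols and positions, which named 42462 of 43346 mouse genes. The library totals, 33711030 and 34578499 expected counts, put all members far above the floor of 3 counts, and counting intervals cover counting error only. Comparisons used the deposited TPM as log2(TPM + 1), a scale that understates differences of low genes, and detection was set at 1 TPM. Both replicates form 1 group, so levels, a pair rule, list counts and medians were given and no test was run. The labels call the replicates biological, and both cite 1 strain donor. The rule for naming took all members, all genes of the POU, partner and target lists, neighbours within 100 kb that passed 1 TPM or were nearest, and the homeodomain genes next to a member in level. Some genes that this rule names are left out of the text. The members, lists and rules were chosen with earlier results of these data known. Alternatives were other pseudocounts, thresholds, windows, lengths and scalings, among them edgeR 4.0.16 TMM and DESeq2 1.42.0 size factors on expected counts rounded to whole numbers. The procedures were tested on simulated data. Other steps used Python 3.11.15, pandas 2.3.3, numpy 2.4.6, scipy 1.17.1, matplotlib 3.10.9 and R 4.3.3. Features without a symbol were not examined as genes. They entered the library totals and some of the scalings, and spike-in features gave the spike-in shares. No other deposit of the series was used.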

Additional observations from a re-analysis of the deposited data

How the results depend on the processing

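The summed class III level, 98.7 TPM as reported, was 59.4 as FPKM and 145 when each gene was divided by its longest transcript. The share of Pou3f2 and Pou3f3, 71.5% as reported, was 76.7% with RefSeq spans, an alternative chosen after seeing the data, and that of Pou3f4 alone was 6.57% against 12.8%. With those spans the log2 difference of Pou3f2 against Pou3f3 was -0.83, against 0.05 as reported, and that of Pou3f1 against Pou3f4 was 1.18 and passed the pair rule, against 0.27. All 6 class III pairs then differed, against 4 as reported. With both libraries, 94 of 96 pair values kept direction and call, and the 2 that did not are the log2 differences just given. FPKM, the removal of spike-ins and the TMM, size factor and spike-in scalings in effect multiply a library by a constant. Such a constant cancels in a difference within a library, apart from the pseudocount, so the directions there were fixed in advance. Only the call could change there, through the spread between the pools. Homeodomain genes that passed ranged from 65 at a threshold of 5 TPM to 111 at 0.1 TPM, against 85, and target genes from 4 to 7, against 5. At 5 TPM 3 other POU genes passed, against 6 as reported. Of genes within 100 kb, 13 passed by posterior mean TPM, 4 at 5 TPM, 4 in a window of 50 kb and 12 in a window of 200 kb, against 7 as reported. The share of Pantr1-209 was 56.0% by posterior mean and 57.0% by expected counts. With 1 replicate left out, the summed level ranged from 88.9 to 108 TPM and 87 to 90 homeodomain genes passed. The pair count has no such value, since 1 library has no spread. No paired analysis of conditions was possible because there is 1 group. The differences between members are paired within each library, but the pair rule set them against the spread between the pools. Exact Poisson intervals at 95% were apart for 4 of 5 members and for 23.8% of genes. With 2 pools, the SD itself is imprecise.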
